A study of Homo sapiens with 6 samples.

Results

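In starved, quiescent IMR90 fibroblasts, 571 of the 9727 R-loop peaks on chromosomes 1 to 22 and X shared no base with any peak of Ras-induced senescent cells. They made up 5.87% of the quiescent list (95% Wilson interval 5.42 to 6.36%), and the other 9156 peaks had a senescent overlap of at least 1 bp. The 571 were chosen by the quiescent and senescent lists together. Their number, and the widths and scores that go with overlap, therefore describe how they were chosen and carry no test.

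IMR90 is a line of human embryonic lung fibroblasts, here wild type and grown at 2% oxygen. Proliferating cells carried a control vector, senescent cells expressed ectopic Ras, and quiescent cells were starved. The sources used here name neither the starvation protocol nor the Ras construct. Each state had 1 library made with a fusion of RNase H and micrococcal nuclease (RH-MNase), which cuts chromatin around RNA-DNA hybrids, and 1 with GST-MNase, which is not analysed here. The proliferating list held 101607 peaks on these chromosomes and the senescent list 85405. Read depth is unknown, no state has a replicate, and in bulk cells fewer cells with an R-loop cannot be told apart from less signal in each. Senescent signal in the text below means a called senescent peak, and signal below the calling threshold was not analysed. Of 10 fibroblast markers 10 had a proliferating, 8 a senescent and 4 a quiescent peak over the gene and 1000 bp on each side, against 16, 12 and 2 of 18 markers of other lung, blood, neural and endothelial cells. Peaks thus lay at markers of other cell types too, and none of these 28 genes held one of the 571 peaks.

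An R-loop forms where RNA pairs with one DNA strand and displaces the other, most often when a nascent transcript pairs again with its template. R-loops are known to gather at GC-rich promoters and at gene ends, where clusters of G on the displaced strand favour them, and RNase H enzymes and helicases take them apart. Quiescence is a reversible exit from the cell cycle, while Ras-induced senescence is a lasting arrest with a secretory phenotype.

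The letters of promoter DNA under 8 of the 571 peaks are given because they carry the sites at the genes described further on. They come from the RefSeq promoter table (GRCh38.p14), which spans 250 bp before to 50 bp after a start site, and are written 5′ to 3′ on the gene's strand with runs of at least 4 G or 4 C in capitals. JKAMP, PQBP1, ZFYVE26, LRPPRC, NUBP1 and MDM4 had no senescent peak within 5000 bp of the gene. POP4 and SPRY2 had one close by and are shown for contrast.
JKAMP, chr14:59484267-59484359, plus strand: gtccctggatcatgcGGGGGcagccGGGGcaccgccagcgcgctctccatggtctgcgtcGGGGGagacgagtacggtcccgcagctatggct
PQBP1, chrX:48897680-48897979, plus strand: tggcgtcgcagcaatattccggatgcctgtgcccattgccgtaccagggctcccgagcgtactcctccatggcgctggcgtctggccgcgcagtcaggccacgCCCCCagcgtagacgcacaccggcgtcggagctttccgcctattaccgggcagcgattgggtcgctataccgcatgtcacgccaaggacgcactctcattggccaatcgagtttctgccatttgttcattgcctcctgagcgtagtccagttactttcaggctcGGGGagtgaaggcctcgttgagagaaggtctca
ZFYVE26, chr14:67816541-67816840, minus strand: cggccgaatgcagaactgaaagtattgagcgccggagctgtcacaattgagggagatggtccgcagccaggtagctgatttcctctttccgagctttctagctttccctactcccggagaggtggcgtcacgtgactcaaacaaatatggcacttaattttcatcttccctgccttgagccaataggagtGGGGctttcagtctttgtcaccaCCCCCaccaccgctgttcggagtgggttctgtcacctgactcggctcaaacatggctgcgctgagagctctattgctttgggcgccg
LRPPRC, chr2:43995940-43996228, minus strand: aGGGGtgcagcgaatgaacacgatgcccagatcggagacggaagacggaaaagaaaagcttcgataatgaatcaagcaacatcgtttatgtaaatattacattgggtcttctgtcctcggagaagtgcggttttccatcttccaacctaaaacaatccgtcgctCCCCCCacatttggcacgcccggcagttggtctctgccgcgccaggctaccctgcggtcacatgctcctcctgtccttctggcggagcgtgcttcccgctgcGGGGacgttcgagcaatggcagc
NUBP1, chr16:10743592-10743891, plus strand: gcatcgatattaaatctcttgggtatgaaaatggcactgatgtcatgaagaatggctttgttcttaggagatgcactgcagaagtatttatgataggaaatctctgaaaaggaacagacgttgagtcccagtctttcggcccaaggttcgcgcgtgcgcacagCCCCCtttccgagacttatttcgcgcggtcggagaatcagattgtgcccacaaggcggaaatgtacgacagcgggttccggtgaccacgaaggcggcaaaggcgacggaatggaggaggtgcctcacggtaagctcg
MDM4, chr1:204516169-204516455, plus strand: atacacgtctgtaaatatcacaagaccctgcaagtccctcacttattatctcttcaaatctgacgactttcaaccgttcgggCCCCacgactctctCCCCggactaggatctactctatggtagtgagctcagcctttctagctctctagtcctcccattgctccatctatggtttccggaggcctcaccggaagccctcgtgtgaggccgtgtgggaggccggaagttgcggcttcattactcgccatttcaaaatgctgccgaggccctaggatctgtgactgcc
POP4, chr19:29606033-29606162, plus strand: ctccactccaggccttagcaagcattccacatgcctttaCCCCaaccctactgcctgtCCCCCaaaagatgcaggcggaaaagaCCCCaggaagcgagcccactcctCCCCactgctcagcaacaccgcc
SPRY2, chr13:80340151-80340358, minus strand: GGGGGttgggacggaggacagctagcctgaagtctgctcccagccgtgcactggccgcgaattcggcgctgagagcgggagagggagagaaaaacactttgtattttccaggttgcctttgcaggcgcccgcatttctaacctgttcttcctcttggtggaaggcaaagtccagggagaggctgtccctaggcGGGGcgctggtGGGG
The stretches differ in composition. That of JKAMP holds 71.0% G and C and that of NUBP1 51.7%. The letters of POP4 favour C over G, with a GC skew (G minus C over G plus C) of -0.436, and those of SPRY2 favour G, with 0.206.

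The 571 peaks were narrow. Their width had a median of 268 bp (quartiles 184.5 and 342.5, range 137 to 927), against 360 bp in quiescent peaks with a senescent partner. Of the 571, 169 (29.6%) were narrower than 200 bp, against 14.2% of the others, and 43 (7.53%) had the narrowest width in the list, 137 bp, against 2.25%. The narrowest peak of both other lists was 195 bp wide, so 157 of the 571 (27.5%) were narrower than any senescent peak. Without such narrow peaks, 414 quiescent peaks still lacked a senescent overlap, with a median width of 307 bp.

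The score is the authors' value for each peak. It takes whole numbers from 10 upward, its scale is unnamed in the sources, and it served only for ranks within a list. The 571 peaks scored 10 to 78 with a median of 17, and the other quiescent peaks 10 to 98 with a median of 20. The median rank percentile was 34.2 and 51.3, where 100 is the top of the quiescent list. Even so, 47 of the 571 (8.23%) scored 33 or more, the highest decile of the list, and among the other peaks it was 10.7%.

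Split into quintiles (5 equal parts) by score, the quiescent list had 10.1% of peaks without a senescent overlap in the lowest quintile, then 6.58%, 4.68%, 3.91% and 4.06% in the highest. By width the share ran from 10.9% in the narrowest quintile through 8.28%, 6.83% and 2.57% to 0.771% in the widest. In the highest score quintile, 9.07% of the peaks under 200 bp lacked a senescent overlap and 2.24% of the wider ones. Of the 12 highest-scoring sites 10 were under 200 bp wide.

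**Figure D1:**
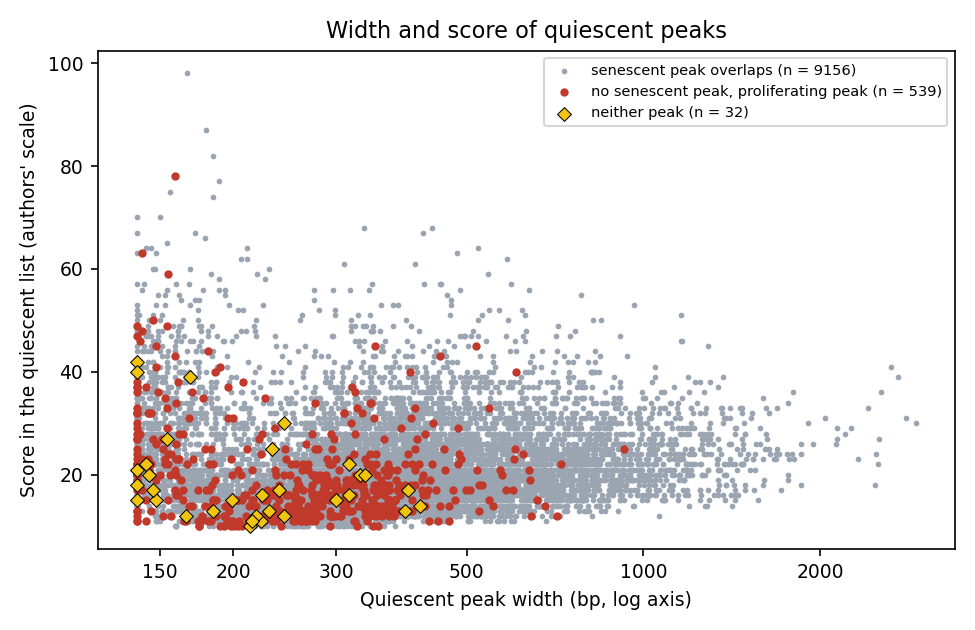
Width (bp, log axis) against score of each quiescent peak, in grey where a senescent peak overlaps, in red where none does but a proliferating peak does, and as yellow diamonds where neither does. The 571 peaks lie mostly under 400 bp and reach a score of 78 at a width of 159 bp.

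The highest score belonged to a peak at PELI3 (chr11:66466498-66466656), which encodes a ubiquitin ligase of Toll and interleukin receptor signalling. It scored 78 and ranked 5 of 9736 in the full quiescent list, which includes 9 peaks on other sequences. A proliferating peak of 2865 bp and score 51 covered the site, and the nearest senescent peak was 666 bp away. At POP4 (chr19:29606008-29606162), which encodes a protein subunit of RNase P and RNase MRP, the quiescent peak scored 59, the proliferating peak scored 50 and the senescent peak stood 157 bp off. At NCAPG2, a condensin II subunit, the quiescent and proliferating scores were 48 and 39 and the gap to senescent signal 291 bp. In all 3 of these genes the site lay inside a proliferating peak of at least 1281 bp and senescent signal was present within 1000 bp.

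Further high-scoring peaks lay from 400 to 31120 bp from senescent signal. The one at the lncRNA gene LOC101927247 (chr1:226197260-226197399) scored 63 and ranked 24, with a proliferating peak of 373 bp and no senescent peak for 10604 bp. Inside GPATCH1, which encodes a spliceosome-associated G-patch protein, the score was 50 and the gap 10682 bp. Inside HSF2BP, whose product takes part in meiotic recombination, the score was 49, and the proliferating peak there was small, 200 bp wide with a score of 16, at percentile 26.7 of its list. Inside HIVEP2, a zinc finger transcription factor gene, the score was 45 and the gap 31120 bp. The lncRNA gene MIAT had a wider peak, 519 bp with a score of 45, 400 bp from a senescent peak. SH3PXD2A, which encodes a scaffold of podosomes, had one of 349 bp and the same score, 4124 bp from a senescent peak. The wide proliferating peaks of PELI3 and NCAPG2 and the small one of HSF2BP show that the 12 highest-scoring sites were not of one kind.

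Senescent signal was often near. The gap from a peak to the nearest senescent peak had a median of 711 bp (quartiles 243 and 5617). In 68 peaks it was at most 100 bp, in 316 (55.3%, 51.2 to 59.4) at most 1000 bp, in 106 (18.6%) over 1000 and up to 5000 bp, and in 149 (26.1%, 22.7 to 29.8) more than 5000 bp. Just inside the 1 bp rule, 41 peaks had a senescent peak within 50 bp, with a median width of 259 bp and a median score of 15. Just outside it, 72 quiescent peaks overlapped senescent peaks by at most 50 bp, with medians of 267 bp and 17. At SRSF11, which encodes a splicing factor, the gap was 2 bp, at IGFBP5 28 bp and at COL4A5 35 bp. Counting a senescent peak within 1000 bp as an overlap left 255 peaks, while asking for overlap over 50% of both peaks left 7596 without a partner. With the senescent list cut to its 9727 highest-scoring peaks, 5788 quiescent peaks lacked one.

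The 3 distance classes are cut by distance to the senescent list, which the rule used, so their values are a description and carry no test. The proliferating partner overlapped a senescent peak in 286 of 310, 13 of 102 and 0 of 127 sites, from the nearest class to the farthest. Partner width is therefore not independent of the classes. Peaks within 1000 bp of senescent signal lay at a gene end in 66.1% and outside genes in 9.18%, and their proliferating partner had a median width of 2077 bp. Peaks over 1000 and up to 5000 bp away lay at a gene end in 31.1% and outside genes in 26.4%, with a partner of 964.5 bp. Peaks more than 5000 bp away lay at a gene end in 38.9% and outside genes in 24.8%, with a partner of 909 bp. The median percentile of the partner was 85.9, 75.6 and 83.3 from the nearest class to the farthest, so it did not follow distance. The peaks' own median scores were 17, 17 and 18, and their widths 261, 273 and 281 bp. The peaks within 1000 bp thus had the widest partners and the most gene ends, and the other classes lay close to each other in both.

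**Figure D2:**
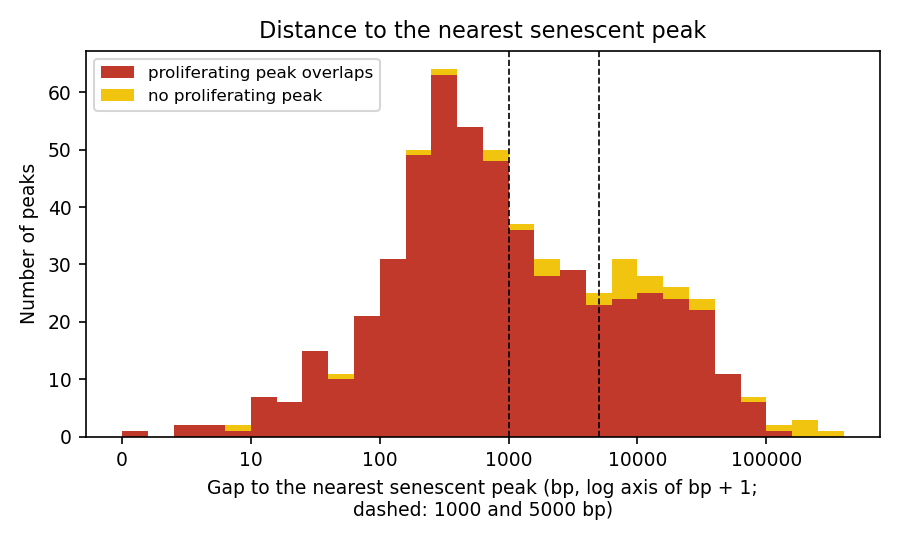
Number of the 571 peaks by gap to the nearest senescent peak (bp, log axis of bp + 1), red where a proliferating peak overlaps and yellow where none does, with dashed lines at 1000 and 5000 bp. The 316 peaks left of the first line are almost all red, and the 5 largest gaps are yellow.

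Of the 571 peaks, 539 (94.4%, 92.2 to 96.0) overlapped a peak of the proliferating list, which had no part in choosing them. In quiescent peaks with a senescent partner the share was 99.8% (9134 of 9156) and in the whole quiescent list 99.4%. The difference was -5.36 percentage points (95% Newcombe interval -7.57 to -3.75). Wilson and Newcombe intervals cover counting error only, and neighbouring peaks are not independent. The difference was -5.24 points averaged over score quintiles and -3.59 over width quintiles. Most of the sites were thus shared with proliferating cells, though less completely than the rest of the list. Of the 539, 498 (92.4%) lay wholly under proliferating peaks, against 97.9% of the others.

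The proliferating peaks over these sites were strong in their own list, and less so than those over the other quiescent peaks. Their median score was 41 against 55.5 and their median rank percentile 83.3 against 93.2. The top decile of the proliferating list by score held 28.8% of them and 64.1% of the partners of other quiescent peaks, a difference of -35.3 points (-39.1 to -31.3). The partners were also narrower, with a median of 1534 bp against 2137.5 bp. In each score quintile of the quiescent list the partner's median percentile was lower in the 571 than in the rest, by a difference of -8.07 to -10.1 points, and in each width quintile by one of -6.20 to -10.6. The gap in partner rank was therefore present within quintiles of score and, separately, within quintiles of width. Score and width were not matched together.

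Seen from the proliferating side, quiescent peaks whose proliferating partner scored 11 to 41 lacked a senescent overlap in 13.5%. The share was 6.77%, 4.50% and 1.76% in the next quintiles and 1.29% where the partner scored 69 or more. Over the whole proliferating list 50.1% of the peaks had no senescent overlap. The 539 sites had 536 distinct proliferating partners, of which 239 (44.6%, 40.4 to 48.8) had none. Counted once per site, as are the other partner values, the 240 partners without a senescent peak had a median width of 893.5 bp. The other 299 touched a senescent peak elsewhere along their length, and their median width was 2332 bp.

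**Figure D3:**
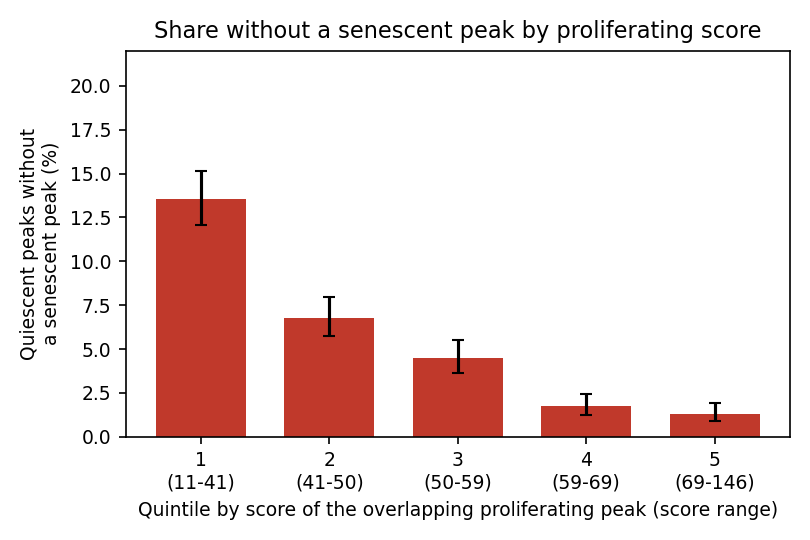
Share of quiescent peaks without a senescent overlap (%, with 95% Wilson intervals) in quintiles of the score of the overlapping proliferating peak, with the score range under each bar. The share goes down from 13.5% in the lowest quintile to 1.29% in the highest.

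CCND1, which encodes cyclin D1, is an example of the wide kind, chosen after its values were seen. A proliferating peak of 13631 bp and score 45 covered a pair of the sites there, one inside the gene (chr11:69643109-69643364, score 22) and one 2259 bp from it (chr11:69638589-69638896, score 14). Senescent peaks stood 689 and 277 bp away. ADAM12, a fibroblast metalloprotease gene, had both kinds in the same gene. One site (score 20) had a proliferating peak of 554 bp with no senescent peak for 9942 bp, and the other (score 19) a proliferating peak of 1980 bp with senescent signal at 661 bp.

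There were 32 peaks with neither a senescent nor a proliferating partner, 5.60% of the 571, against 22 of the 9156 others (0.240%) without a proliferating one. Their median width was 217 bp, their median score 16.5 (range 10 to 42), and their median gap to senescent signal 8810 bp. The highest lay inside DDAH1, which encodes an enzyme that breaks down methylated arginine (chr1:85569092-85569228, score 42, 137 bp wide), with senescent signal 7090 bp away. Next was a peak of the same width inside AFG2A, an ATPase of ribosome maturation (chr4:123103168-123103304, score 40), 179708 bp from senescent signal. The lncRNA gene LOC124904390 had one of score 39. At ends of protein-coding genes there were 4 of them, at C16orf89 (score 20), CCDC163 (17), TMEM98 (14) and LEFTY1 (12), the last a gene for an inhibitor of Nodal signalling. Peaks with no partner in either list were thus mostly away from the ends of protein-coding genes.

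The 5 sites farthest from senescent signal all lacked a proliferating peak as well. The farthest was chr20:29792524-29792742 (score 12), 346927 bp from the nearest senescent peak. A pair 1851 bp from end to end lay on chromosome 16, at chr16:33338029-33338363 (score 20) and chr16:33339565-33339879 (score 22), 209356 and 207840 bp away. AFG2A and a site 3637 bp from ANKRD36 (chr2:97268159-97268381, score 11, gap 154175 bp) complete the set. Mappability and copy number at these sites were not tested.

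Against the full senescent list, the 571 peaks lay less often at gene ends than the rest of the quiescent list. A gene end here is 1000 bp around either annotated end of a protein-coding or lncRNA gene. It held 300 of the 571 (52.5%, 48.4 to 56.6), against 61.2% of the others, a difference of -8.68 points (-12.9 to -4.49). Genes held a further 177 (31.0% against 28.4%, difference 2.62, -1.15 to 6.64) away from their ends, an interval that includes 0. Outside genes lay 94 (16.5% against 10.4%, difference 6.05, 3.17 to 9.37). The 316 peaks within 1000 bp of a senescent peak did not share this, with 66.1% at gene ends and 9.18% outside genes. The lower gene-end share was that of the farther peaks, 31.1% up to 5000 bp away and 38.9% beyond. With the senescent list cut to its 9727 highest peaks the difference at gene ends turned to 1.89 points (-0.0885 to 3.87) and that outside genes was 1.19 (-0.0624 to 2.43). With overlap over 50% of both peaks the differences were -2.42 (-4.73 to -0.0766) and -1.24 points (-2.82 to 0.240). Start sites, for the genes whose strand the promoter table gives, lay within 1000 bp of 250 of the 571 (43.8% against 54.5%), and far ends alone within 1000 bp of 11 (1.93% against 2.94%).

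Gene position went with the proliferating state. A proliferating peak overlapped 97.7% of the sites at gene ends, 92.1% of those inside genes and 88.3% of those outside, and among other quiescent peaks at least 99.1% in each class. The partner's median width was 1799 bp at gene ends, 1139 bp inside genes and 1016 bp outside. The quiescent score itself did not order the classes, with a median of 17 in each. Outside genes the highest score was 49, at a site 29647 bp from ANXA5, and the next 46, at a site 15490 bp from LOC107986432. Inside genes MARCHF1, which encodes a membrane ubiquitin ligase, and PRKCH, which encodes protein kinase C eta, each held a peak of score 43.

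**Figure D4:**
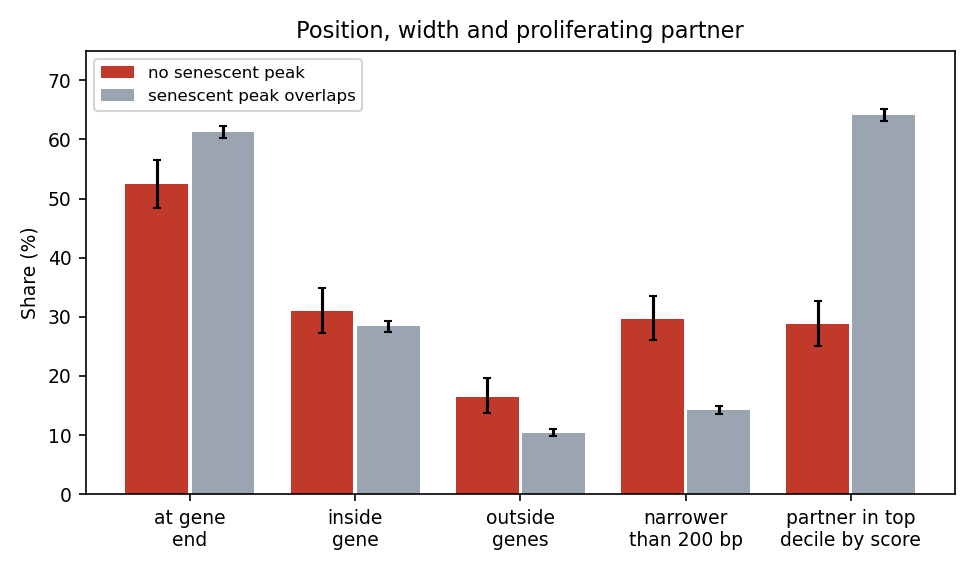
Shares (%, with 95% Wilson intervals) of the 571 peaks in red and of the 9156 other quiescent peaks in grey at gene ends, inside genes, outside genes and under 200 bp wide, and the share of their proliferating partners in the top decile by score. The bars for gene ends are 52.5% and 61.2%, and those for the top decile 28.8% and 64.1%.

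No tRNA, miRNA, snoRNA or snRNA gene was overlapped by any of the 571 peaks, which allows a share of up to 0.668% for each by the Wilson interval. Among the 9156 others the shares were 0.0437% (4 peaks), 0.393% (36), 0.0218% (2) and 0%, in the same order. Each difference had an interval that includes 0, so the absence does not set the 571 peaks apart. The sites were more scattered, since 118 (20.7%) had another quiescent peak within 5000 bp, against 31.5% of the others. Pairs within 20000 bp of each other numbered 13, and 545 sites stood alone. One pair lay at DDX20, which encodes a DEAD-box helicase of the SMN complex, and its neighbour INKA2 (scores 20 and 17) under a single proliferating peak of 1844 bp. Others lay at MYO10 (15 and 13), NR3C2, the mineralocorticoid receptor gene (12 and 11), and ACTN4 (15 and 14), all chosen after their values were seen.

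At protein-coding genes, 294 of 19974 (1.47%) had one of the 571 peaks at an end. Of these, 293 had a proliferating peak at an end, and 232 (78.9%) had a senescent peak at an end that did not overlap the quiescent one. Senescent peaks were lacking at the ends of 62, and at 25 (8.50%) none was found in the gene or within 5000 bp of it. Another quiescent peak at an end, with a senescent partner, was present in 58. Of the 5204 other genes with a quiescent peak at an end, 5201 had a senescent one there, a contrast that the choice of the sites largely fixes.

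The 25 genes without a called senescent peak in the gene or within 5000 bp of it each had a single quiescent peak and 1 to 4 proliferating peaks. JKAMP, which encodes a membrane protein that binds the stress kinase JNK, had the highest quiescent score, 36, with a proliferating peak of 3158 bp and score 36, and no senescent peak for 17284 bp. At VWA5A the quiescent score was 32, the proliferating score 42 and the gap 29586 bp. PQBP1, on the X chromosome, encodes a splicing-related protein, and its scores were 29 and 43. ZFYVE26, which encodes a lysosomal trafficking protein, had the widest of the 571 peaks, 927 bp with a score of 25, under a proliferating peak of 1466 bp and 93413 bp from senescent signal. The site of ZFYVE26 covered its whole promoter window, as did those of PQBP1 and NUBP1.

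URB1, a ribosome assembly gene, had a quiescent score of 23 and a proliferating score of 47. SEC62, a gene of protein transport into the endoplasmic reticulum, had 22 and 63. LRPPRC, whose product stabilizes mitochondrial mRNAs, had 19 and 53, with senescent signal 46926 bp away. NUBP1, which takes part in cytosolic iron-sulfur cluster assembly, had 19 and 46. These 8 genes ranked between percentiles 68.0 and 96.1 of the proliferating list, so the sites were well marked in proliferating cells and had no counterpart in the senescent list.

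Lower-scoring genes of the 25 were chosen after their values were seen. MDM4, which encodes an inhibitor of p53, had a quiescent score of 15, a proliferating score of 28 and a gap of 8066 bp. ATP5MC3, a subunit gene of ATP synthase, had 14 and 56, and SLC25A6, an ADP/ATP carrier gene, 14 and 31. SAT1, the polyamine acetyltransferase gene, had 10 and 45, and ZBTB33, which encodes the methyl-CpG binding protein Kaiso, 12 and 28. The zinc finger genes ZNF84, ZNF737 and ZSCAN2 each had a quiescent score of 15. Near the lncRNA gene MIRLET7IHG, host of a let-7 microRNA, a peak of score 12 lay under a proliferating peak of 2369 bp, with no senescent peak for 28604 bp.

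Taking the whole gene with 1000 bp on each side, 468 of 19974 protein-coding genes (2.34%) held at least 1 of the 571 peaks, and 6836 (34.2%) held any quiescent peak. No gene held more than 2. HIVEP2 had 2, with scores of 45 and 18, and 6 senescent and 12 proliferating peaks in all. ARRB1, which encodes a beta-arrestin, had 2 of score 36 and 17. SMAD3, the transducer of TGF-beta signals, had 2 of score 22 and 12, the first of them 725 bp wide. CAMTA1, a very long gene with 102 senescent peaks, had 2 of score 25 and 16, and ADAM12 had 2 of score 20 and 19.

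The gene lists give a view by function, and each is set beside the 2.34% of all protein-coding genes. Of protein-coding genes with a quiescent peak, 6.85% held one of the 571 peaks. A list with few such genes can therefore hold none without standing apart. None of 33 fibroblast matrix and cytoskeleton genes held one of the 571 peaks, and 20 held a quiescent peak. Nor did any of 30 genes of quiescence and the starvation response (15 with a quiescent peak) or of 24 cholesterol and fatty acid synthesis genes (16). The same held for 28 lysosome and autophagy genes (15), 30 respiratory chain genes (8), 32 E2F targets and cell cycle genes (11) and 30 R-loop factors (11). It also held for 34 proteasome and ubiquitin genes (9), 31 genes of nucleic acid sensing and interferon (7) and 28 small nuclear and related RNA genes (6). The RNA genes are not protein-coding, so the shares over protein-coding genes are not a like background for them. Where genes of these lists had quiescent peaks, senescent peaks overlapped them.

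Immediate early and MAPK feedback genes, which respond to growth factor signals, had 4 of 33 (12.1%). SPRY2, an inhibitor of receptor tyrosine kinase signalling, scored 35, EGR3 and NR4A1, both transcription factor genes, 12 each, and DUSP1, which encodes a MAP kinase phosphatase, 10. The proliferating scores were 41, 87, 36 and 50. All 4 genes had senescent peaks nearby, at gaps of 1036, 274, 96 and 761 bp. A quiescent peak was held by 22 of the 33, and 18.2% of these 22 held a site. Over all protein-coding genes with a quiescent peak the share was 6.85%. It rests on few genes in each list and ran from 0% to 50% over the 20 lists. Splicing factors (22.2%), replication-dependent histones (50%, 1 of 2 genes) and markers of other tissues (50%, 2 of 4) stood above the immediate early genes. By peaks, 10.5% of the 38 quiescent peaks of the immediate early list were sites, against 5.30% over all protein-coding genes. Ribosomal protein genes had 2 of 53, RPL10A (23) and RPS14 (14), and splicing factors 2 of 34, HNRNPA2B1 (12) and SRSF11 (11). Replication-dependent histones had 1 of 49, H2BC12 (20), whose peak was 5584 bp from senescent signal.

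The senescence-associated secretory phenotype had 1 of 36, IGFBP5 (32), which encodes a binding protein of insulin-like growth factors and had 10 senescent peaks over its locus. CDK inhibitors and p53 targets had 1 of 22, TP53INP1 (12). Common fragile site genes had 1 of 32, GMDS (13), and zinc finger genes of chromosome 19 had 1 of 65, ZNF93 (15). Markers of other tissues had 2 of 38, MBP (38) and KRT8 (21). Each of the listed genes named here with one of the 571 peaks had at least 1 senescent peak somewhere over its locus.

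Chromosome X had the highest share of any chromosome, with 20 of 138 quiescent peaks lacking a senescent overlap (14.5%, 9.58 to 21.3), against 551 of 9589 (5.75%) on the others. The difference was 8.75 points (3.81 to 15.6), and averaged over score or width quintiles 7.61 and 6.89. Chromosome 21 followed with 9 of 80 (11.3%, 6.03 to 20.0) and chromosome 13 was lowest with 3 of 143 (2.10%, 0.716 to 5.99), and their intervals are wide. X was singled out after these values were seen. Proliferating peaks on X lacked a senescent overlap in 56.5%, against 49.99% elsewhere. The proliferating partners of all quiescent peaks on X had a median percentile of 84.2, against 93.0 on chromosomes 1 to 22, and their part in the difference was not tested.

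All 20 sites on X had a proliferating peak. PQBP1, whose peak also lay at an end of TIMM17B, scored highest (29), followed by ENOX2 (28) and EOLA1 (27). ZFX, a zinc finger gene, scored 21 and the collagen genes COL4A5 and COL4A6, which share a start region, 18. UBA1, which encodes the main ubiquitin-activating enzyme, held a peak of score 13. PBDC1 (19), SLC25A6, ZBTB33 and SAT1 stood 9557 to 59647 bp from senescent signal, while in COL4A5 and UBA1 the gap was 35 and 191 bp. A site 34541 bp from LOC102723911 and one 11506 bp from SMIM10 lay between, at gaps of 3094 and 4050 bp.

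**Figure D5:**
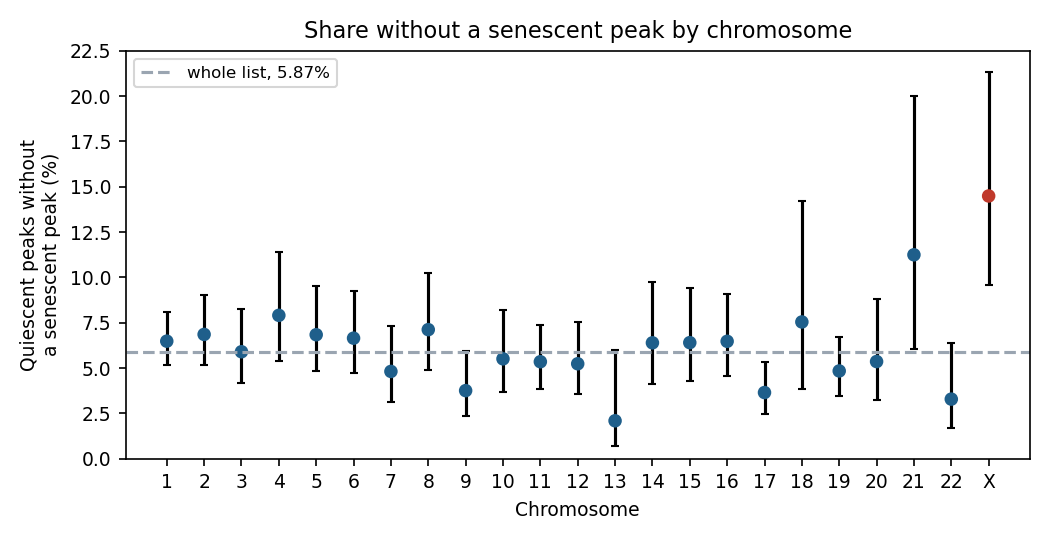
Share of quiescent peaks without a senescent overlap on each chromosome (%, with 95% Wilson intervals), with a dashed line at 5.87% for the whole list and X in red. X stands at 14.5% and the chromosomes numbered 1 to 22 between 2.10% and 11.3%.

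Promoter sequence could be read where a peak overlapped a RefSeq promoter window of 300 bp. This held for 140 of the 571 peaks (24.5%, against 33.3% of the others) and 184 of 34961 windows (0.526%), those of 173 genes. The windows had a median G and C content of 65.0%, against 67.3% in 4150 windows under other quiescent peaks and 58.7% in all windows. Their median ratio of observed to expected CpG was 0.876, against 0.808 and 0.580. Windows under any senescent and any proliferating peak had a median G and C content of 65.3% and 65.0%. Their median CpG ratios were 0.798 and 0.811. The median GC skew on the gene's strand was -0.00516, 0.0169 and 0.0119, and the quartiles of the 3 sets overlapped. Promoter windows under the sites were thus rich in GC and CpG, as were those under peaks of each list. The median G and C content under the 571 peaks was closer to the senescent and proliferating values than to that under other quiescent peaks. Their median CpG ratio was the highest of the sets given here.

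Motifs were counted on both strands of the same windows. The GC box GGGCGG was in 66.3% of the windows under the 571 peaks, 74.5% of those under other quiescent peaks and 45.0% of all, a difference between the first 2 of -8.15 points (-15.4 to -1.58). GGGCGG and GGGG can overlap, so their counts are not independent. The 184 windows lay under 140 peaks, and the intervals treat windows as independent, so they may be too narrow. TATAAA was in 5.98%, 3.18% and 11.5%, with a difference of 2.80 points (0.13 to 7.23) that rests on 11 windows. In windows under any senescent and any proliferating peak, GGGCGG was in 67.3% and 66.9% and TATAAA in 4.88% and 5.55%. For both motifs the windows under the 571 peaks were closer to these than to those under other quiescent peaks. GGGG was in 97.3%, 99.2% and 89.7%. The differences for CCAAT (37.5% against 33.5%), the ETS motif CCGGAAGT (9.24% against 7.90%), CACGTG (8.70% against 9.47%), TGACTCA (2.17% against 2.75%) and the NRF1 motif (3.26% against 2.89%) had intervals that include 0. In all windows these 5 stood at 34.6%, 4.14%, 7.27%, 4.92% and 1.24%.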

How the data were processed

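Peak lists of the 3 RH-MNase libraries, 1 per state, were analysed, and each sample's state came from its title and treatment label. MACS2 2.2.7.1, Bowtie2 2.4.5 and FastQC 0.11.9 were used on GRCh38, per the submitters' processing notes. Settings, filters and any control library: not given in the sources used here. The deposited score of each peak is the authors' and was used only for ranks within a list. Lists that differ in length and unknown depth set how many peaks can overlap. The sites are the quiescent peaks on chromosomes 1 to 22 and X with no senescent overlap of at least 1 bp.

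Genes (59098 used, 19974 of them protein-coding) came from a RefSeq table without strand, so gene ends are 1000 bp around either end. Strand and sequence came from the RefSeq promoter table (GRCh38.p14). Shares carry 95% Wilson and differences Newcombe intervals. With 1 library per state no p-value was computed. Overlap and interval code was tested on simulated peaks (Python 3.11.15, pandas 2.3.3, numpy 2.4.6).

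The sites, the 20 gene lists and the rules were chosen with earlier results of these data known. Genes were named by rank of score: the 12 highest sites, up to 10 at protein-coding gene ends with and up to 10 without a proliferating peak (only 4 existed), the 6 highest inside and outside genes, the 5 farthest from senescent signal, the 3 widest, the 5 genes with most sites, the 8 highest at genes without senescent signal and up to 4 genes a list. Some genes and 1 list that these rules take are not reported here. The 20 sites on X and other names were chosen after their values were seen. Other overlap rules, list lengths, windows and gene sets were tried.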

Additional observations from a re-analysis of the deposited data

Results flagged for a closer look

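The quiescent list also held 9 peaks on sequences other than chromosomes 1 to 22 and X, which no comparison used. None was on chromosome Y (0 of 9), 1 had no senescent overlap and 1 no proliferating overlap. The GST-MNase libraries were not analysed, so these 9 peaks were not set against them.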

How the results depend on the processing

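Of 100 values recomputed for 10 results under other settings, 58 stayed within the error of the reported value or within 1.5 times its count, 40 moved and 2 reversed. The gene-end difference reversed to 1.89 points with the other lists cut to 9727 peaks (outside genes 1.19), and the difference outside genes reversed to -1.24 points with overlap over 50% of both peaks (gene ends -2.42). Both intervals of the reversed values include 0. They were -25.7 and 15.1 points with peaks within 1000 bp counted as overlapping and -22.1 and 14.3 with the 5000 bp rule. These position differences were recomputed after seeing the data, and the cause was not tested. The lower proliferating overlap kept its sign in each setting that gave it. With overlap over 50% of both peaks, 7596 quiescent peaks lacked a senescent partner, 2.03% had a proliferating one (difference -18.1 points), 60.2% lay at gene ends and 10.5% outside genes. With peaks within 1000 bp counted as overlapping the values were 255, 90.6%, -9.27 points, 35.7% and 25.5%. With the other lists cut to the 9727 highest peaks they were 5788, 49.5%, -26.8 points, 61.5% and 11.2%. With quiescent peaks at or above the median score, 209 sites remained, with a median width of 224 bp, a median percentile of 72.7 and 99 protein-coding genes. Averaged over width quintiles the difference was -3.59 points. Gene ends held 43.6% with windows of 500 bp, 62.9% with 3000 bp and 44.3% with protein-coding genes alone, and 12.96% lay outside genes with 3000 bp and 25.2% with protein-coding genes alone. Settings chosen after seeing the data were a 5000 bp rule for senescent peaks, the list without narrow peaks, and the list without X. The first gave 149 sites, 85.2%, -14.4 points, 38.9% at gene ends, 24.8% outside, a width of 281 bp, percentile 40.4 and 55 genes. The second gave a width of 307 bp. Without X no value moved. No paired analysis was possible because each state has 1 library and the labels give no replicate numbers. Depth is unknown, so an absent senescent peak is an absent call, not an absent R-loop, and signal below the calling threshold was not analysed here.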
